A study of Mus musculus with 6 samples.

Results

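The 40 genes described here make cholesterol, fatty acids and glycerolipids. They were taken by gene name from a table of FPKM values (fragments per kilobase of transcript, scaled to the size of each library) that lists 52405 genes, and all 40 were found. The sterol arm held 20 of them, genes usually driven by the transcription factor SREBP2. The lipogenic arm held the other 20, many of them driven by SREBP1, with Mlxipl, the gene of another transcription factor, among them. All 40 passed the filter of a mean of at least 1 FPKM over the libraries, which left 12770 genes tested. The study compared proximal tubule cells of the kidney from KO mice and control mice (Ctr), with 3 libraries per group. The KO mice lack Igf1r, the receptor of insulin-like growth factor 1, in the proximal tubule. The labels do not spell out the alleles of the control mice. The mice of both groups were adult C57BL/6 females, were ovariectomized on postnatal day 21 and had uninjured kidneys. The tubule cells were pulled from dissociated kidney cortex by magnetic beads against prominin-1. The sources used here do not name the driver of the deletion, the exact age or any pooling of animals. The libraries are labelled as biological replicates within each group.

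Cells build cholesterol from acetyl-CoA through mevalonate and squalene. When sterols in the endoplasmic reticulum run low, SREBP2 is released from its anchor, cut in the Golgi and sent to the nucleus, where it switches on nearly every enzyme of this route. SREBP1 acts in the same manner on the enzymes of fatty acid synthesis, and insulin signalling raises it in liver. Proximal tubule cells burn fatty acids for most of their energy and are not known as a main site of fat synthesis, but they make their own membranes.

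The groups and libraries were checked first. Igf1r (GRCm38 chromosome 7, 67952827 to 68233668) was at 4.78, 7.67 and 5.08 FPKM in KO replicates 1, 2 and 3, against 18.7, 15.3 and 22.7 FPKM in Ctr replicates 1, 2 and 3, so the groups did not overlap. Its log2 change was -1.55 (SE 0.20, adjusted p = 0.267, limma), and the two-sided exact permutation p was 0.1, which is the least that 3 against 3 can give. All 15 markers of the proximal tubule passed the filter, and their summed FPKM ran from 7170 to 7780 in KO and from 7500 to 9260 in Ctr. The 13 markers of the thick limb, distal tubule and collecting duct also all passed, with sums of 2640, 4110 and 2580 FPKM in KO (replicates 1, 2 and 3), against 2260, 3070 and 2910 FPKM in Ctr in the same order of replicates. KO replicate 2 had the highest sum, with Umod alone at 2300 FPKM. Umod, Slc12a1, Kcnj1, Cldn16 and Slc12a3 were highest in that library. The other markers of the list, among them Aqp2, Aqp3 and Foxi1, were highest in other libraries. The 8 markers of podocytes and mesangium summed to 243, 23.9 and 22.7 FPKM in KO and to 306, 34.0 and 24.0 FPKM in Ctr. The 8 endothelial markers summed to 145, 19.2 and 15.0 FPKM in KO and to 178, 23.2 and 17.2 FPKM in Ctr. The libraries numbered 1 of both groups thus stood apart in both lists. The 9 immune markers summed to 10.4, 4.4 and 2.5 FPKM in KO and to 12.2, 4.73 and 3.76 FPKM in Ctr. Of the 7 adipocyte markers Adipoq and Lep were listed at 0 in all 6 libraries, and the whole list summed to 1.79 to 6.85 FPKM in KO and 1.77 to 6.13 FPKM in Ctr, nearly all of it Fabp4. Of the 7 markers of adrenal cortex 4 were listed at 0 throughout, and the sums were 0.62 to 0.75 FPKM in KO and 0.47 to 0.85 FPKM in Ctr. In bulk samples, fewer cells of a type and less RNA per cell cannot be told apart.

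The libraries held RNA of other tubule segments beside that of the proximal tubule, with Umod, a marker of the thick limb, at 1590 ± 613 FPKM in KO and 1340 ± 232 in Ctr (SD, n = 3 each). The levels that follow are those of these mixed samples. The mean FPKM over the 6 libraries ran from 6.18 (Hsd17b7) to 94.3 (Hmgcs1) in the sterol arm, with a median of 17.7. In the lipogenic arm it ran from 2.82 (Acaca) to 99.2 (Dgat2), with a median of 23.8. The median over all genes tested was 9.9 FPKM. Within each arm, steps of the same route stood at very different levels. Hmgcs1, which makes the precursor of mevalonate, averaged 94.3 FPKM, and Mvk, the kinase that acts on mevalonate, 9.42. In the fatty acid route, Me1 (87.8), Acss2 (57.9) and Acly (43.9), which supply NADPH and acetyl-CoA, lay far above Acaca (2.82) and Fasn (8.85), which build the chain. Dgat2, the last step of triglyceride synthesis, averaged 99.2 FPKM, while the unrelated enzyme Dgat1, which catalyses the same step, averaged 18.5.

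**Figure D1:**
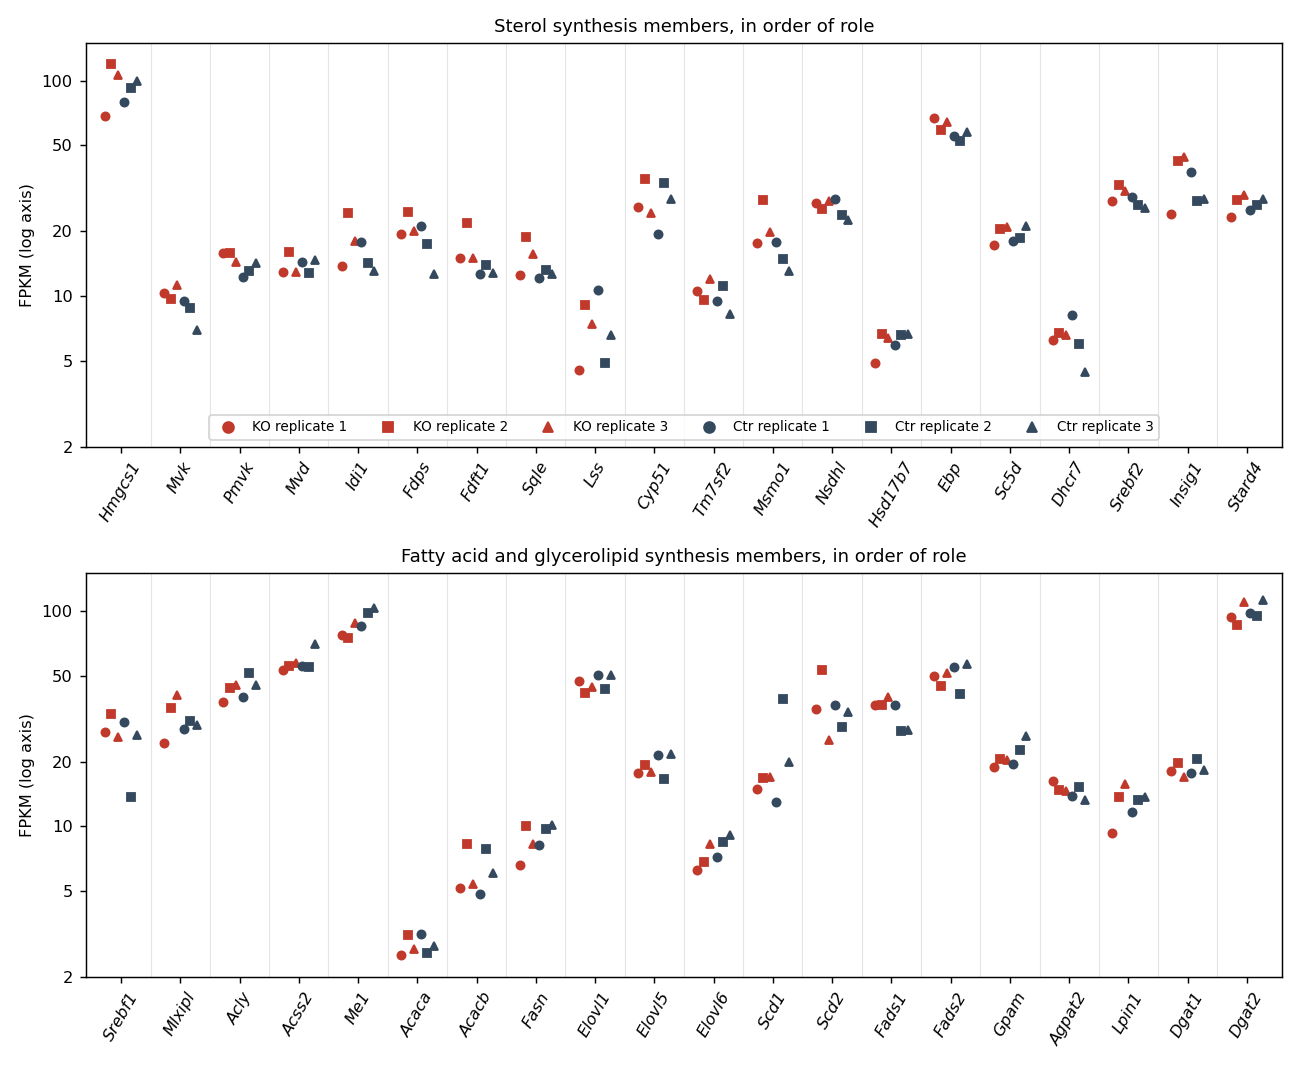
FPKM (log axis) of the 20 sterol members (top) and the 20 lipogenic members (bottom) in each of 3 KO (red) and 3 Ctr (dark) libraries, with the symbol giving the replicate number. Levels within an arm span from 2.82 FPKM on average for Acaca to 99.2 for Dgat2, and the groups are interleaved for most genes.

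No member passed the threshold between KO and Ctr. With limma on log2(FPKM + 1) and Benjamini-Hochberg adjustment over the 12770 genes tested, 0 of 40 members had an adjusted p under 0.05, and the adjusted p was 1.0 for each of them. Over all genes tested 0.0157% were called higher and 0.00783% lower, 0.0235% in all. At an unadjusted p under 0.05, 5 members had a higher estimate in KO (Fdft1, Msmo1, Ebp, Pmvk and Fads1) and 1 a lower one (Me1). The same threshold took 1.82% of all genes tested as higher and 1.69% as lower. With the replicate number as a block in the fit (the replicate block), 0 of 40 members were again called, against 0.0313% of all genes. At an unadjusted p under 0.05 it gave 5 higher members and 1 lower, with Sqle in place of Pmvk, against 2.88% and 2.76% of all genes. The sterol arm had higher estimates in KO for 17 of 20 genes, with a median log2 change of 0.15 (SD over genes 0.14). The lipogenic arm had lower estimates for 14 of 20, with a median of -0.06 (SD over genes 0.18). Over all genes tested 43.6% had a higher estimate and 56.4% a lower one, and the median was -0.02. The difference between the arms was not tested. Cell type markers had the following estimates beside these counts. Estimates in KO were lower for 14 of 15 proximal tubule markers (median log2 change -0.09) and higher for 11 of 13 markers of thick limb, distal tubule and collecting duct (median 0.08). They were lower for 7 of 8 podocyte and mesangium markers (median -0.12) and 8 of 8 endothelial markers (median -0.23). The SEs of the endothelial estimates, from 0.65 (Flt1) to 1.24 (Kdr), were larger than the estimates themselves in the fit without the replicate block. With the block, 2 of 8 endothelial markers were lower at an unadjusted p under 0.05 (limma). So were 1 of 8 podocyte and mesangium and 3 of 15 proximal tubule markers, against 2.76% of all genes. Of the thick limb, distal tubule and collecting duct markers 1 of 13 was higher, against 2.88%. Without the block these counts were 0, 0, 2 and 1. Acy3 was the 1 proximal tubule marker without overlap, at 169 ± 6.11 FPKM in KO and 237 ± 50.8 in Ctr (SD, n = 3 each). None of these markers passed the adjusted threshold, and their part in the results of the members was not tested.

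**Figure D2:**
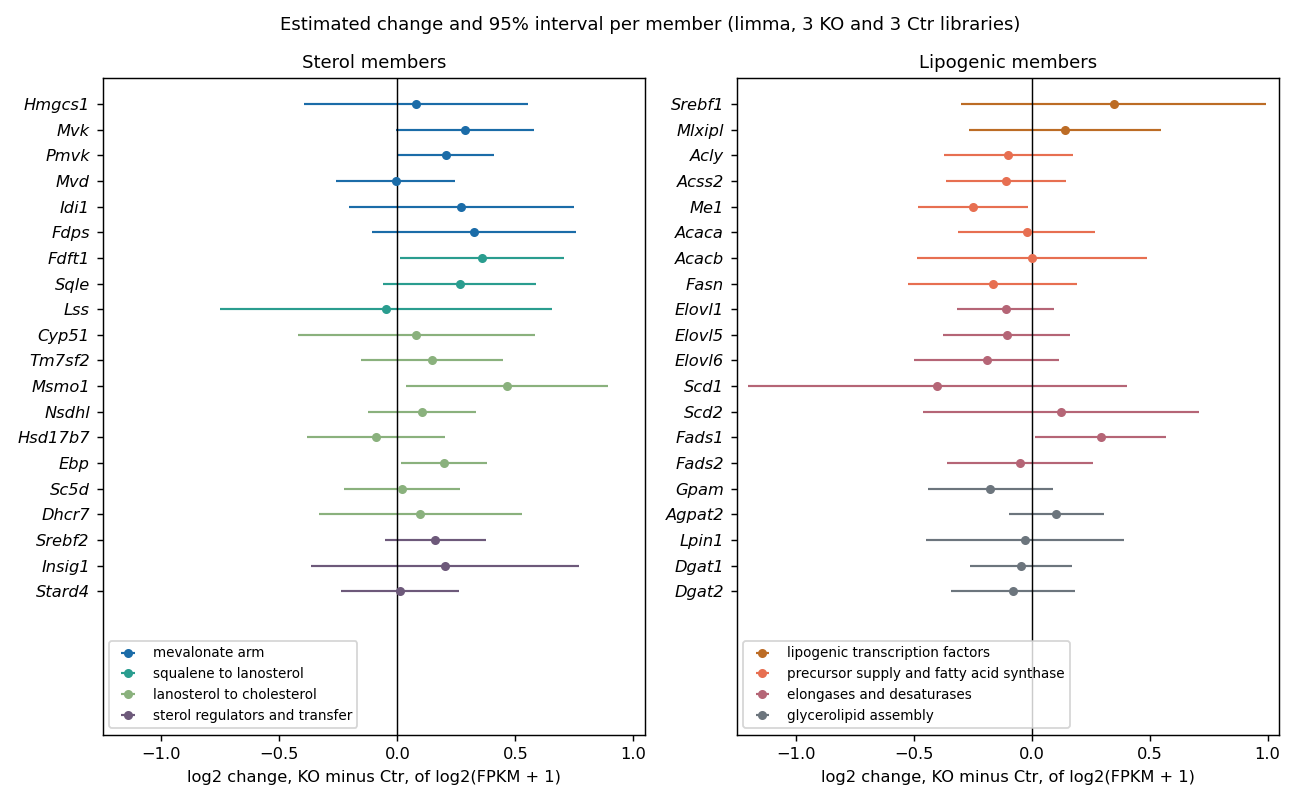
Log2 change (KO minus Ctr) of log2(FPKM + 1) with its 95% interval from limma for the 20 sterol members (left) and the 20 lipogenic members (right), coloured by role. Intervals of 5 members lie above 0 (Fdft1, Msmo1, Ebp, Pmvk and Fads1) and that of Me1 below 0, before any adjustment for the number of genes.

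The steps through mevalonate turn acetyl-CoA units into farnesyl pyrophosphate. Of these 6 genes 5 had a higher estimate in KO (median log2 change 0.24). Hmgcs1 (ENSMUSG00000093930, GRCm38 chromosome 13, 119690379 to 119708260) had 68.7, 119.5 and 106 FPKM in KO replicates 1, 2 and 3, against 79.9, 92.5 and 99.6 FPKM in Ctr replicates 1, 2 and 3. The KO libraries of this gene were both the lowest (replicate 1) and the 2 highest of the 6. Its log2 change was 0.08 (half-width of its 95% interval 0.47), and it was -0.08 without KO replicate 2. Pmvk, the phosphomevalonate kinase (chromosome 3, 89454541 to 89469013), had 15.8, 15.8 and 14.4 FPKM in KO, against 12.3, 13.0 and 14.3 FPKM in Ctr. The groups did not overlap, though by only 14.44 FPKM in KO against 14.25 FPKM in Ctr at the closest pair. The log2 change was 0.21 (SE 0.09, unadjusted p = 0.0485 and adjusted p = 1.0, limma). Mvk (chromosome 5, 114444269 to 114460591) had 10.4, 9.64 and 11.3 FPKM in KO, against 9.5, 8.77 and 6.96 FPKM in Ctr. It too had no overlap between the groups, with a log2 change of 0.29 (SE 0.12, unadjusted p = 0.0531 and adjusted p = 1.0, limma), and 0.17 without Ctr replicate 3. Idi1, the isomerase of isopentenyl pyrophosphate, averaged 18.7 ± 5.23 FPKM in KO and 15.1 ± 2.5 in Ctr, and Fdps, the farnesyl pyrophosphate synthase, 21.3 ± 2.87 in KO and 17.1 ± 4.27 in Ctr (SD, n = 3 each). Both overlapped between the groups. Mvd, the decarboxylase that makes isopentenyl pyrophosphate, was at 14.0 ± 1.74 FPKM in KO and 14.0 ± 0.999 in Ctr (SD, n = 3 each).

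Some of these values depend on how reads were divided between genes. The longest transcript of Idi1 aligned over 684 of 3027 bases, at up to 100% identity, to Gm13502, which had 5.25, 10.0 and 6.58 FPKM in KO and 7.47, 6.88 and 7.38 FPKM in Ctr. Idi1 had its highest value, 24.3 FPKM, in KO replicate 2 as well. The share of Idi1 reads that the authors' quantification gave to this copy was not tested. Fdft1 shares 774 exon bases with Ctsb, a lysosomal protease gene on the opposite strand at far higher levels (328 ± 19.0 FPKM in KO and 337 ± 54.9 in Ctr, SD, n = 3 each). The library kit keeps strand, but the sources used here do not say whether reads were counted by strand. Ctsb had a log2 change of -0.03 (SE 0.12, adjusted p = 1.0, limma), and its values in KO replicates 1, 2 and 3 were 348, 324 and 310 FPKM. Tm7sf2 shares 532 exon bases with Vps51 on the same strand (19.7 ± 0.662 FPKM in KO and 18.2 ± 0.692 in Ctr, SD, n = 3 each), so its reads cannot be fully told from those of Vps51. Acss2 shares 395 exon bases with Gss on the opposite strand (79.4 ± 4.81 FPKM in KO and 85.3 ± 11.2 in Ctr, SD, n = 3 each). Cyp51 shares 166 with Akap9, and Agpat2 shares 64 with Egfl7, an endothelial gene at 27.4 FPKM in KO replicate 1 and 36.1 FPKM in Ctr replicate 1. Acaca and Elovl6 have near copies that stayed below 1 FPKM in every library.

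The squalene steps join 2 farnesyl units and fold squalene into lanosterol. Fdft1, the squalene synthase (ENSMUSG00000021273, chromosome 14, 63145150 to 63179578), had 15.0, 21.8 and 15.1 FPKM in KO, against 12.6, 13.9 and 12.8 FPKM in Ctr. All 3 KO libraries were above all 3 Ctr libraries, with KO replicate 2 far above the rest. Its log2 change was 0.36 (SE 0.15, unadjusted p = 0.0446 and adjusted p = 1.0, limma), and 0.19 without KO replicate 2. Sqle, the squalene epoxidase (chromosome 15, 59315077 to 59331192), had 12.6, 18.7 and 15.6 FPKM in KO, against 12.2, 13.3 and 12.7 FPKM in Ctr. KO replicates 2 and 3 lay above every Ctr library and KO replicate 1 lay among them. The log2 change was 0.26 (SE 0.14, adjusted p = 1.0, limma), 0.13 without KO replicate 2 and 0.40 without KO replicate 1. Lss, the lanosterol synthase, did not share this order. It had 4.56, 9.12 and 7.45 FPKM in KO, against 10.7, 4.91 and 6.62 FPKM in Ctr, and its 2.34-fold range over the libraries was the widest of the sterol arm.

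From lanosterol to cholesterol 7 of 8 genes had a higher estimate in KO (median log2 change 0.10). Msmo1, the methylsterol oxidase (ENSMUSG00000031604, chromosome 8, 64718139 to 64733792), had 17.6, 27.8 and 19.8 FPKM in KO, against 17.9, 14.9 and 13.1 FPKM in Ctr. KO replicate 1 lay just under Ctr replicate 1, so the groups overlapped. Msmo1 had the highest estimate of the 40 members, a log2 change of 0.47 (SE 0.18, unadjusted p = 0.0372 and adjusted p = 1.0, limma), which was 0.28 without KO replicate 2 and 0.71 without both libraries numbered 1. Ebp, the sterol isomerase (ENSMUSG00000031168, chromosome X, 8185329 to 8193512), had 67.1, 58.7 and 64.5 FPKM in KO, against 55.3, 52.6 and 57.6 FPKM in Ctr. The groups did not overlap. Unlike Fdft1 and Msmo1, the lowest of its 3 KO values was that of KO replicate 2, and the log2 change of 0.20 (SE 0.08, unadjusted p = 0.0386 and adjusted p = 1.0, limma) was 0.25 without that library. In the other 6 genes the groups overlapped. Cyp51, the demethylase of lanosterol, averaged 28.3 ± 5.68 FPKM in KO and 27.0 ± 7.07 in Ctr, and Nsdhl, a decarboxylating dehydrogenase, 26.6 ± 1.06 in KO and 24.8 ± 2.90 in Ctr (SD, n = 3 each). Tm7sf2, a sterol reductase, averaged 10.7 ± 1.22 FPKM in KO and 9.61 ± 1.44 in Ctr. Dhcr7, the last reductase of one branch, averaged 6.53 ± 0.242 FPKM in KO and 6.2 ± 1.87 in Ctr (SD, n = 3 each). Sc5d, a desaturase, averaged 19.5 ± 2.05 FPKM in KO and 19.2 ± 1.65 in Ctr. Hsd17b7, a ketoreductase, was the exception in sign, at 5.97 ± 0.959 FPKM in KO and 6.39 ± 0.392 in Ctr (SD, n = 3 each, log2 change -0.09, SE 0.12, and 0.03 without KO replicate 1).

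In all, the groups did not overlap for 4 of the 20 sterol members (Mvk, Pmvk, Fdft1 and Ebp), each higher in KO, where 3.89% of all genes tested were higher without overlap and 4.7% lower. In the lipogenic arm this held for 0 of 20.

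**Figure D3:**
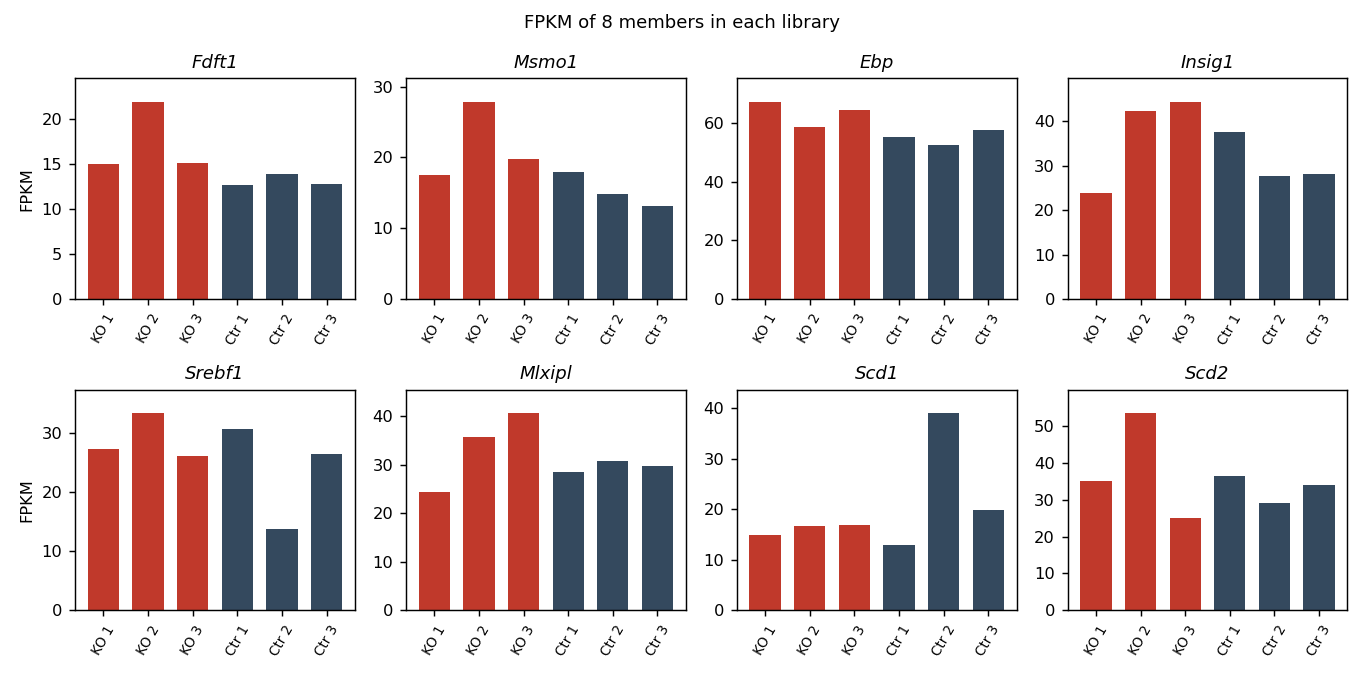
FPKM of 8 members in each library, KO (red) left of Ctr (dark), each panel from 0. Fdft1 and Msmo1 peak in KO replicate 2 (21.8 and 27.8 FPKM), Ebp does not, Scd1 peaks in Ctr replicate 2 (39.0 FPKM), and Srebf1 is lowest there (13.7 FPKM).

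Promoter sequences are shown for members with a match to the searched form of the sterol regulatory element, the site that SREBPs bind. They are also shown for sterol members at an unadjusted p under 0.05. The sequences are those of RefSeq (GRCm38.p6), from 250 bases before to 50 bases after an annotated start, and 31 of the 40 members have one. The others are Fdft1, Fdps, Sqle, Stard4, Scd1, Scd2, Fads1, Dgat1 and Dgat2. Both strands were searched for the element as TCACNCCAC and for the CCAAT box, the site of NF-Y, which acts beside SREBPs, as CCAAT. Capitals mark matches on either strand, so that a box on the other strand reads ATTGG.
Hmgcs1, chr13:119690101-119690400, plus strand: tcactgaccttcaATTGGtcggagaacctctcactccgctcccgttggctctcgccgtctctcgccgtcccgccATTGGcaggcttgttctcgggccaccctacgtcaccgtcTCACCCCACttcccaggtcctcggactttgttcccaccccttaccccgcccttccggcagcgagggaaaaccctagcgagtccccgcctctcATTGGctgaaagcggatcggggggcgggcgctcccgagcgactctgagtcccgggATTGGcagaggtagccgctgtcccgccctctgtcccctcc
Msmo1, chr8:64733529-64733828, minus strand: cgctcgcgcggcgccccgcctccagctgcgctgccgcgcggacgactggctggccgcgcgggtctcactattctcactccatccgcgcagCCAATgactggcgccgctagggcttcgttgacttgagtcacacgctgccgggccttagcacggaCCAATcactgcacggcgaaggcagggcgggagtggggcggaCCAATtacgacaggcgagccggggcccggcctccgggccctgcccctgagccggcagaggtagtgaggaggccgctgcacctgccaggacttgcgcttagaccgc
Ebp, chrX:8193463-8193762, minus strand: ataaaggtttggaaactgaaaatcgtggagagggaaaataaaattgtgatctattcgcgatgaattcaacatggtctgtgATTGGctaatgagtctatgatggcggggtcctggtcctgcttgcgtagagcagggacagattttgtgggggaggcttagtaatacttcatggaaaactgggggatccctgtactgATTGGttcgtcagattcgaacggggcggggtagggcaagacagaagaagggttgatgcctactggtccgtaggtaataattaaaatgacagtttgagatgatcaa
Pmvk, chr3:89454291-89454590, plus strand: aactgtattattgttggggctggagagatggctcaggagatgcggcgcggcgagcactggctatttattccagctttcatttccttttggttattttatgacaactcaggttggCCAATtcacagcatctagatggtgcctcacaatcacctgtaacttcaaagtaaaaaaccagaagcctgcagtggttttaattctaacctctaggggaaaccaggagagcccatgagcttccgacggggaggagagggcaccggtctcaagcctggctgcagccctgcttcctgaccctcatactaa
Mlxipl, chr5:135106641-135106940, plus strand: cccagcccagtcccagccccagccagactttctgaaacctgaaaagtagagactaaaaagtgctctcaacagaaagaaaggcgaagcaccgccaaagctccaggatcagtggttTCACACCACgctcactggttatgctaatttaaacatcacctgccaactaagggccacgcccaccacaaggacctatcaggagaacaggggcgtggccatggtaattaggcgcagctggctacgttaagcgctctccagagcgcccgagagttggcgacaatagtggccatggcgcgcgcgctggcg
The element was found in Hmgcs1 (TCACCCCAC at position -137 from the start) among 16 sterol members with a promoter and in Mlxipl (TCACACCAC at position -136) among 15 lipogenic members. The Mlxipl match lies before an alternative start inside the annotated gene. The element stands in 1.44% of the 27025 genes that have a promoter in this set, each gene counted once over its starts. The CCAAT box was in 16 of 16 sterol members and 10 of 15 lipogenic members, against 41.1% of all genes, where any start of a gene counts. By single promoter it was in 16 of 19 of the sterol and 11 of 21 of the lipogenic members, against 37.4% of all promoters. A further promoter of Pmvk (chr3:89459321-89459620), not printed above, had 0 boxes. At least 2 boxes in one promoter were found in 9 of 16 sterol members and 2 of 15 lipogenic members, against 13.3% of all genes. Msmo1 has 3 boxes and Ebp 2, and these genes differed in which library was highest, KO replicate 2 for Msmo1 and KO replicate 1 for Ebp. A match is a description of the letters in this window and not of a bound site. Other forms of the element and bases outside the window were not searched. The lack of a match therefore does not show that a gene lacks a site.

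For the 3 genes of sterol regulation and transfer the groups overlapped. Srebf2, the gene of SREBP2 (chromosome 15, 82147181 to 82205379), had 27.6, 32.8 and 30.6 FPKM in KO, against 28.9, 26.6 and 25.5 FPKM in Ctr, with a log2 change of 0.16 (SE 0.09, adjusted p = 1.0, limma), which was 0.10 without KO replicate 2. KO replicates 2 and 3 lay above every Ctr library and KO replicate 1 did not. Insig1, which holds SREBPs in the endoplasmic reticulum and is itself an SREBP target (chromosome 5, 28071363 to 28078662), had 23.9, 42.4 and 44.4 FPKM in KO, against 37.5, 27.8 and 28.1 FPKM in Ctr. The order within the libraries numbered 1 was the opposite of that within the other pairs. Its log2 change was 0.20 (SE 0.24, adjusted p = 1.0, limma), and without both libraries numbered 1 it was 0.62 (SE 0.10, adjusted p = 0.343, limma). It was 0.05 without KO replicate 3, 0.08 without KO replicate 2 and 0.48 without KO replicate 1. Leaving out Ctr replicate 1, 2 or 3 gave 0.34, 0.13 and 0.14. Stard4, a cytosolic carrier of cholesterol, averaged 26.9 ± 3.29 FPKM in KO and 26.6 ± 1.65 in Ctr (SD, n = 3 each).

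The sterol arm also differed between libraries of the same group. The median deviation of its 20 genes from their own mean over the libraries, on the log2 scale, came to -0.06, 0.19 and 0.11 for KO (replicates 1, 2 and 3), against -0.03, -0.10 and -0.15 for Ctr in the same order of replicates. KO replicate 2 held the highest value of 11 of the 20 genes and Ctr replicate 3 the lowest of 8. Over the 12770 genes tested these numbers were 2263 and 2120. Between libraries of the same number, 7 of 20 genes were higher in KO among those numbered 1, 19 of 20 among those numbered 2 and 16 of 20 among those numbered 3. The median differences were -0.07, 0.28 and 0.24 on the log2 scale, against -0.03, 0.01 and -0.03 over all genes tested. The shares of all genes higher in KO within each number were not counted. Without KO replicate 2 the median log2 change of the arm was 0.09, with 13 of 20 genes higher and 1 at an unadjusted p under 0.05. Without KO replicate 1 all 20 had a higher estimate and 7 had such a p. Without both libraries numbered 1 the median was 0.25, with 18 of 20 genes higher and 8 at such a p, still with 0 past the adjusted threshold. The number at such a p was 0 without Ctr replicate 2 and 2 without Ctr replicate 3 or KO replicate 3. For these fits the shares of all genes at such a p or with a higher estimate were not counted. Over all genes tested the median log2 change was -0.03 without KO replicate 2. It was -0.01 without KO replicate 1 and also without both libraries numbered 1. KO replicate 2 also had the highest sum of the thick limb, distal tubule and collecting duct markers (4110 FPKM, with Umod at 2300). This did not hold for each marker of that list. The libraries numbered 1 had the most podocyte and endothelial signal. The part of these other cell types in the sterol values was not tested.

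**Figure D4:**
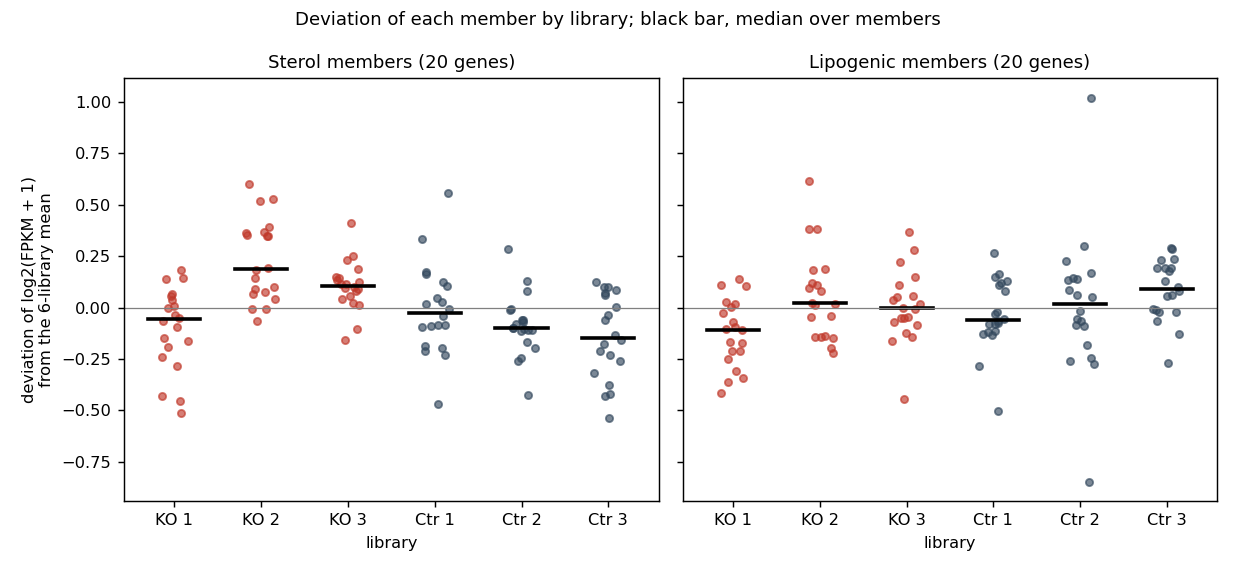
Deviation of log2(FPKM + 1) from the mean over the 6 libraries for each of the 20 sterol (left) and 20 lipogenic (right) members, by library, KO (red) left of Ctr (dark), with the median as a black bar. The sterol median is 0.19 in KO replicate 2 and -0.15 in Ctr replicate 3, and -0.06 in KO replicate 1, which lies among the Ctr libraries.

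Among the lipogenic transcription factors, Srebf1, the gene of SREBP1 (ENSMUSG00000020538, chromosome 11, 60199089 to 60222581), had 27.3, 33.3 and 26.0 FPKM in KO, against 30.6, 13.7 and 26.4 FPKM in Ctr. The other libraries lay between 26.0 and 33.3 FPKM and Ctr replicate 2 lay apart below them. The log2 change of 0.35 (SE 0.28, adjusted p = 1.0, limma) was 0.01 without that library and 0.57 without Ctr replicate 1. Mlxipl, the gene of the glucose-responsive factor ChREBP (chromosome 5, 135089890 to 135138382), had 24.4, 35.6 and 40.5 FPKM in KO, against 28.4, 30.8 and 29.7 FPKM in Ctr. Its 3 KO values lay on both sides of the narrow range of Ctr, and the log2 change was 0.14 (SE 0.17, adjusted p = 1.0, limma), with a range of -0.007 (without KO replicate 3) to 0.35 (without KO replicate 1) when 1 library was left out.

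Of the 6 genes of precursor supply and fatty acid synthase 5 had a lower estimate in KO (median log2 change -0.10). Me1, the cytosolic malic enzyme that yields NADPH (ENSMUSG00000032418, chromosome 9, 86581371 to 86695953), had 77.3, 74.9 and 88.3 FPKM in KO, against 85.4, 98.2 and 103 FPKM in Ctr. Only KO replicate 3 and Ctr replicate 1 overlapped. The log2 change was -0.25 (SE 0.10, unadjusted p = 0.0395 and adjusted p = 1.0, limma), and it lay between -0.33 and -0.19 when any 1 library was left out. The near copy Gm7049, which aligns to 1638 of its 3292 bases, averaged 1.95 ± 0.19 FPKM in KO and 2.86 ± 0.392 in Ctr (SD, n = 3 each). Fasn, the fatty acid synthase (chromosome 11, 120805846 to 120824547), had 6.61, 10.1 and 8.30 FPKM in KO, against 8.24, 9.73 and 10.1 FPKM in Ctr, with overlapping groups (log2 change -0.17, SE 0.15, adjusted p = 1.0, limma). The change was -0.03 without KO replicate 1 and -0.30 without KO replicate 2. Acss2, which makes acetyl-CoA from acetate, averaged 55.5 ± 2.05 FPKM in KO and 60.3 ± 8.83 in Ctr, and Acly, which makes it from citrate, 42.3 ± 4.15 in KO and 45.5 ± 5.77 in Ctr (SD, n = 3 each). Acaca, the cytosolic acetyl-CoA carboxylase, averaged 2.79 ± 0.312 FPKM in KO and 2.84 ± 0.294 in Ctr. Acacb, the form at the mitochondrial surface, averaged 6.30 ± 1.76 FPKM in KO and 6.25 ± 1.48 in Ctr (SD, n = 3 each).

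The elongases and desaturases held Scd1, the member with the widest range over the 6 libraries. Scd1, the main delta-9 desaturase of adult liver (ENSMUSG00000037071, chromosome 19, 44394455 to 44407879), had 14.9, 16.8 and 16.9 FPKM in KO, against 13.0, 39.0 and 19.9 FPKM in Ctr. The 3 KO values lay within 2 FPKM of each other, and Ctr replicate 2 alone stood at a level 3.01 times that of Ctr replicate 1. Among all genes tested, 5.77% had a larger ratio of highest to lowest library. The log2 change of -0.40 (SE 0.34, adjusted p = 1.0, limma) was 0.01 without Ctr replicate 2. Scd2, its neighbour on the same chromosome (44293674 to 44306864), had 35.0, 53.4 and 25.1 FPKM in KO, against 36.5, 29.0 and 34.0 FPKM in Ctr. KO replicates 2 and 3 were the highest and lowest of the 6 libraries. The longest transcript of Scd2 aligned to Scd1 over 623 of 5455 bases at up to 95.5% identity, so reads from that stretch may have gone to either gene. The library with the most Scd1 (Ctr replicate 2) had the second lowest Scd2 and the lowest Srebf1.

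Fads1, the delta-5 desaturase (ENSMUSG00000010663, chromosome 19, 10182888 to 10196877), had 36.6, 36.7 and 39.7 FPKM in KO, against 36.7, 27.9 and 28.0 FPKM in Ctr. Ctr replicate 1 lay at the level of KO and the other 2 Ctr libraries below it. The log2 change was 0.29 (SE 0.12, unadjusted p = 0.0410 and adjusted p = 1.0, limma), and 0.44 without both libraries numbered 1. Fads2, the delta-6 desaturase that lies beside it, averaged 48.8 ± 3.47 FPKM in KO and 51 ± 8.51 in Ctr (SD, n = 3 each, log2 change -0.05, and 0.03 without Ctr replicate 3). The 3 elongases had lower estimates with overlapping groups. Elovl6, which extends palmitate (chromosome 3, 129532355 to 129638495), had 6.26, 6.83 and 8.32 FPKM in KO, against 7.18, 8.50 and 9.15 FPKM in Ctr (log2 change -0.19, SE 0.13, adjusted p = 1.0, limma). The change was -0.11 without KO replicate 1 and -0.29 without KO replicate 3. Its highest KO library lay among the Ctr libraries and the others below them. Elovl1, for very long chains, averaged 44.5 ± 2.65 in KO and 48.1 ± 3.96 in Ctr, and Elovl5, for polyunsaturated chains, 18.3 ± 0.887 in KO and 19.9 ± 2.84 in Ctr (SD, n = 3 each).

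The genes of glycerolipid assembly had a median log2 change of -0.05 over 5 genes. Gpam, the mitochondrial acyltransferase of the first step (chromosome 19, 55067268 to 55127238), had 18.8, 20.6 and 20.4 FPKM in KO, against 19.6, 22.6 and 26.2 FPKM in Ctr. KO replicates 2 and 3 lay above the lowest Ctr library and below the others, and the log2 change was -0.18 (SE 0.11, adjusted p = 1.0, limma). It was -0.07 without Ctr replicate 3 and -0.28 without Ctr replicate 1. Agpat2, the acyltransferase of the second step (chromosome 2, 26593057 to 26604417), had 16.2, 14.8 and 14.6 FPKM in KO, against 13.8, 15.2 and 13.3 FPKM in Ctr, and its log2 change of 0.11 (SE 0.09, adjusted p = 1.0, limma) was the only positive one of the 5. It was 0.06 without KO replicate 1 and 0.16 without Ctr replicate 2. Lpin1, the phosphatidate phosphatase, averaged 12.9 ± 3.26 FPKM in KO and 12.9 ± 1.11 in Ctr. The acyltransferases of triglyceride synthesis averaged 96.5 ± 11.9 FPKM in KO and 102 ± 9.79 in Ctr for Dgat2, and 18.2 ± 1.36 in KO and 18.8 ± 1.49 in Ctr for Dgat1 (SD, n = 3 each).

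By library, the median deviation of the 20 lipogenic genes came to -0.11, 0.02 and -0.003 for KO (replicates 1, 2 and 3), against -0.06, 0.02 and 0.09 for Ctr in the same order of replicates. KO replicate 1 held the lowest value of 8 genes and Ctr replicate 3 the highest of 9. Over the 12770 genes tested these numbers were 2871 and 2386. Among libraries of the same number, 4 of 20 lipogenic genes were higher in KO for number 1, 11 of 20 for number 2 and 4 of 20 for number 3. The median differences were -0.085, 0.026 and -0.128 on the log2 scale, against -0.028, 0.009 and -0.031 over all genes tested. The shares of all genes higher in KO within each number were not counted. Ctr replicate 3, the library with the lowest values of 8 sterol genes, was thus the one with the highest values of 9 lipogenic genes. The median log2 change of the arm lay between -0.10 and -0.02 when any 1 library was left out, and it was -0.02 without Ctr replicate 3. Over all genes tested the median of that fit was -0.02 as well.

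Further genes of both pathways were counted for comparison. The 20 other sterol genes cover processing and anchoring of SREBPs, nuclear receptors for oxysterols, transport and esterification. The enzymes Acat2, Ggps1, Lbr and Cyp27a1 are among them too. All 20 were tested, 8 had a higher and 12 a lower estimate in KO, and the median log2 change was -0.03. By limma 0 of them passed the threshold and 0 had an unadjusted p under 0.05. Ggps1, which lengthens farnesyl to geranylgeranyl pyrophosphate, had a log2 change of 0.15 (SE 0.09), Rnf139, a ubiquitin ligase of the endoplasmic reticulum, -0.09 (SE 0.08) and Nr1h2, the oxysterol receptor LXR beta, 0.08 (SE 0.07). Of 26 other genes of fatty acid and glycerolipid synthesis 21 were tested, 7 with a higher and 14 with a lower estimate (median -0.07), again with 0 past the threshold and 0 at such a p. Hacd2, a dehydratase of chain elongation, averaged 40.2 ± 3.17 FPKM in KO and 46.0 ± 3.72 in Ctr, Plin2, which coats lipid droplets, 62.9 ± 12.5 in KO and 74.9 ± 11.9 in Ctr, and Idh1, a source of cytosolic NADPH, 299 ± 25.7 in KO and 338 ± 43.4 in Ctr (SD, n = 3 each, limma adjusted p = 1.0 for each).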

How the data were processed

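RNA-seq of prominin-1-positive kidney cortex cells from KO and Ctr mice, with 3 libraries per group, was analysed. The authors deposited FPKM values with 2 decimals for 52405 genes. Per the labels' protocols, the kit (NEBNext Ultra II Directional) keeps strand. The submitters' processing notes list STAR 2.6.0c, RSEM and DESeq2 1.28.1 without roles. The sources used here give no genome build, annotation or strand setting for the counting. Because FPKM is scaled within a library, a change in abundant genes shifts all others.

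Read counts were not among the values used. The steps between low FPKM values of genes with 1 transcript of 500 to 800 bases gave depths of about 17300000 to 21900000 fragments per library, approximate because they take the full transcript length, with a ratio of deepest to shallowest of 1.27. The 12770 genes whose mean reached 1 FPKM were fitted with limma 3.58.1 (R 4.3.3, intensity trend, two-sided) on log2(FPKM + 1). Benjamini-Hochberg adjustment ran over all of them, with 0.05 as the threshold. Their 95% intervals had a median half-width of 0.29 (log2). A fold change on this scale understates that of low genes. The fit was tested on simulated data. The p-values measure the spread between these libraries.

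Gene coordinates come from GENCODE M21 (GRCm38) through the gene identifiers. Transcripts of members were aligned to all others with blastn 2.17.0, keeping alignments of at least 100 bases and 90% identity. Promoters were read from RefSeq sequences (GRCm38.p6) by gene symbol.

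The members, lists and tests were chosen with earlier results of these data known. Values in every library are given for members at an unadjusted p under 0.05, the 2 with the smallest p in each of 8 roles, and Srebf1, Srebf2 and Mlxipl. Scd1 and Scd2 are included as near copies. The values of Hmgcs1, of Lss and of genes that share sequence with members, and the promoters of Msmo1, Ebp and Pmvk, were chosen after they were seen. Of the lists of other pathway genes the 3 with the smallest p are named.

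Both groups carry the replicate numbers 1 to 3. Across genes, the deviations of same-numbered KO and Ctr libraries from their group means had correlations of 0.63, 0.29 and 0.37 for the numbers 1, 2 and 3. All exceed 0.1, the limit set for a pairing, so the replicate block was run beside the fit without it, although the labels do not state a pairing. KO replicate 2 and Ctr replicate 3 correlated by 0.30 too, so this check does not tell the numbers 2 and 3 apart. The fit without the replicate block is the one reported. The alternatives were other pseudocounts, filters and normalizations, no intensity trend, the replicate block, and leaving out libraries.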

Additional observations from a re-analysis of the deposited data

How the results depend on the processing

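No member passed the adjusted threshold under any of the 15 alternatives, where the smallest limma adjusted p of a member was 0.343. With the replicate block 4 genes passed over all genes, against 3 without it, and 0 of the 40 members. At an unadjusted p under 0.05 the block left 4 sterol and 2 lipogenic members, as without it, with Sqle in place of Pmvk. No other call of a member differed. The number of all genes past the threshold was 1 at a mean FPKM of at least 5, 5 without both libraries numbered 1 and 0 to 4 when 1 library was left out. The number of sterol members at an unadjusted p under 0.05 was 1 without the intensity trend and 2 when values were rescaled to the nuclear sum. In the lipogenic arm these numbers were 0 and 1. The shares of all genes at such a p were not counted under these settings.

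The medians of both arms kept their sign under every alternative. The median of the sterol arm ran from 0.09 to 0.20 and that of the lipogenic arm from -0.10 to -0.02 when 1 library was left out. The median over all genes tested was negative in every setting too. Without Ctr replicate 3 it was -0.018, and the lipogenic arm also had -0.018. Without KO replicate 2 it was -0.027, where the lipogenic arm had -0.104. Of the 40 members 23 kept the sign of their log2 change in all alternatives. For the other 17 the sign turned in at least 1, and the cause was not tested. When 1 library was left out the log2 change ran from -0.082 to 0.31 for Hmgcs1, from -0.10 to 0.041 for Mvd, from -0.27 to 0.22 for Lss, from -0.13 to 0.24 for Cyp51, from -0.17 to 0.026 for Hsd17b7, from -0.032 to 0.10 for Sc5d, from -0.089 to 0.29 for Dhcr7 and from -0.058 to 0.11 for Stard4. It ran from -0.007 to 0.35 for Mlxipl, from -0.17 to 0.007 for Acss2, from -0.086 to 0.038 for Acaca, from -0.19 to 0.15 for Acacb, from -0.75 to 0.010 for Scd1, from -0.15 to 0.38 for Scd2, from -0.20 to 0.031 for Fads2, from -0.17 to 0.17 for Lpin1 and from -0.097 to 0.015 for Dgat1. Without both libraries numbered 1 the sign turned for Mvd (0.059), Lss (0.46), Cyp51 (-0.080), Acaca (0.086), Acacb (-0.032) and Lpin1 (0.11). Rescaling to the nuclear sum turned Stard4 (-0.002) and Acacb (-0.009). Quantile normalization turned Mvd (0.016). Before adjustment, the members' 95% intervals reached from 0.18 (Ebp) to 0.80 (Scd1) to either side of the log2 change.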
